A study of Homo sapiens with 9 samples.

Results

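The RNA levels of 41 regulators of heterochromatin, Polycomb repression and DNA methylation were followed in DLD1 cells, a human colorectal cancer line, after depletion of Lamin A/C or Lamin B2. The genes were taken by name from a list of 42 such regulators, and 41 of the 31033 gene names on the arrays matched it, with 80 probes. HDAC7 had no probe under that name. By role, 9 of the genes act in HP1 binding and methylation of lysine 9 of histone H3 (H3K9), 11 belong to the Polycomb complexes, 12 are deacetylases and histone chaperones, and 9 act in DNA methylation and chromatin remodelling. The study asked how the transcriptome of DLD1 cells responds to the loss of each lamin. The controls were 3 cultures of DLD1 cells that received no siRNA. The knockdowns, named Lamin A/C Kd and, for the other lamin, Lamin B2 Kd, were 3 cultures each, transfected with 100 nM of a single siRNA sequence against LMNA or LMNB2, with the knockdown lasting 48 h in all. Because the controls were not transfected, an effect of transfection and an effect of the knockdown cannot be told apart.

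The nuclear lamina is a protein meshwork under the inner nuclear membrane, and the chromatin attached to it is mostly silent and carries methylated H3K9. HP1 proteins read that mark, Polycomb complexes place and read other repressive marks on histones H3 and H2A, deacetylases remove activating acetyl groups, and DNA methyltransferases with their partner UHRF1 copy and set methylation of cytosine. The arrays measure only the transcripts of these regulators, not the marks they make or their place in the nucleus. In RNA from a whole culture, a lower level in every cell and fewer cells with the transcript cannot be told apart.

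RNA of each culture was hybridized to 1 single-color array, and a level is given here as the log2 intensity of a probe minus the median of its array. The targeted genes fell as labelled: LMNA fell by 3.83 on the log2 scale, to 7.04% of control, upon Lamin A/C Kd, and LMNB2 fell by 2.32 upon Lamin B2 Kd. The 8 epithelial markers examined were above background on all 9 arrays, although VIL1, which encodes the microvillus protein villin, fell by 1.06 upon Lamin B2 Kd (adjusted p = 0.0340 by limma) and lay at −0.58 upon Lamin A/C Kd (adjusted p = 0.127). The part of epithelial identity in the results was not tested. By contrast, COL1A1, COL1A2, COL3A1, LUM, CDH5 and PTPRC, which mark fibroblasts, vessels and leukocytes, were above background on at most 1 array of any group. Other markers of those cells, such as CD14, CD3E and PECAM1, gave signal above background on all arrays, and their part in the results was not tested. Lamin B2 Kd replicate 3 was hybridized on a separate slide and stood apart: its root mean square difference from the other Lamin B2 Kd arrays was 0.60 on the log2 scale, against 0.46 and 0.47 for replicates 1 and 2 of its own group and 0.27 to 0.30 for the control and Lamin A/C Kd arrays. Since limma shares 1 estimate of the spread over all groups, this array also widens the errors of Lamin A/C Kd, so the counts below are given with and without it. In Lamin B2 Kd the median of all genes tested lay at −0.14, and at −0.06 without replicate 3, and it moved to 0.06 when arrays were aligned on their 75th percentile. Changes in Lamin B2 Kd are therefore also given relative to that median.

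Most of these regulators changed little upon depletion of either lamin. Upon Lamin A/C Kd, 2 of 40 genes tested fell and none rose at an adjusted p under 0.05, namely UHRF1, the cofactor of maintenance DNA methylation, and the deacetylase HDAC1. Over all genes tested in that comparison 8.94% passed the test, 5.78% lower and 3.15% higher. Upon Lamin B2 Kd only DNMT3A, a de novo DNA methyltransferase, fell among the 40, against 4.38% of all genes that passed, 3.92% lower and 0.466% higher. At an unadjusted limma p under 0.05, 14 of the 40 passed upon Lamin A/C Kd, where 23.2% of all genes did. Of these, 12 were lower, against 14.7% of all genes, and CBX6 and DNMT3A were higher, against 8.47%. For Lamin B2 Kd the count was 17, all lower, where 24.4% of all genes passed, 20.1% lower and 4.39% higher. No gene of the 40 changed at least 2-fold with an unadjusted p under 0.05 on its brightest probe in either knockdown, while 2.2% and 2.03% of all genes did. In this fit each share called at the adjusted p was below that of all genes. At the unadjusted p alone, the shares in either direction and lower were above those of all genes, and the shares higher were below them. These few calls were also fragile, since leaving out any 1 of the controls, or Lamin A/C Kd replicate 1 or 2, left none of the 40 past the adjusted p in either knockdown.

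Without Lamin B2 Kd replicate 3, 13 of the 40 passed the test in Lamin A/C Kd, against 20.9% of all genes. Of these, 11 fell (BMI1, CBX3, DNMT1, EED, EZH2, HDAC1, HELLS, MBD2, RNF2, SUV39H1 and UHRF1), against 13.5% of all genes, and CBX6 and DNMT3A rose, against 7.41%. The rise of DNMT3A was on its brighter probe only, and in the same fit its dimmer probe had a log2 fold change of −0.64 (adjusted p = 0.0124 by limma). For Lamin B2 Kd the same omission left 2 genes that fell, DNMT3A and UHRF1, against 4.72% of all genes that passed, 4% lower and 0.719% higher. The Lamin A/C Kd count therefore depends on how the spread is estimated, since its own 3 arrays are the same in both fits. With Lamin B2 Kd replicate 3 left out, both shares in either direction lay above those of all genes, the Lamin B2 Kd share only slightly. The shares that rose lay below those of all genes.

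**Figure D1:**
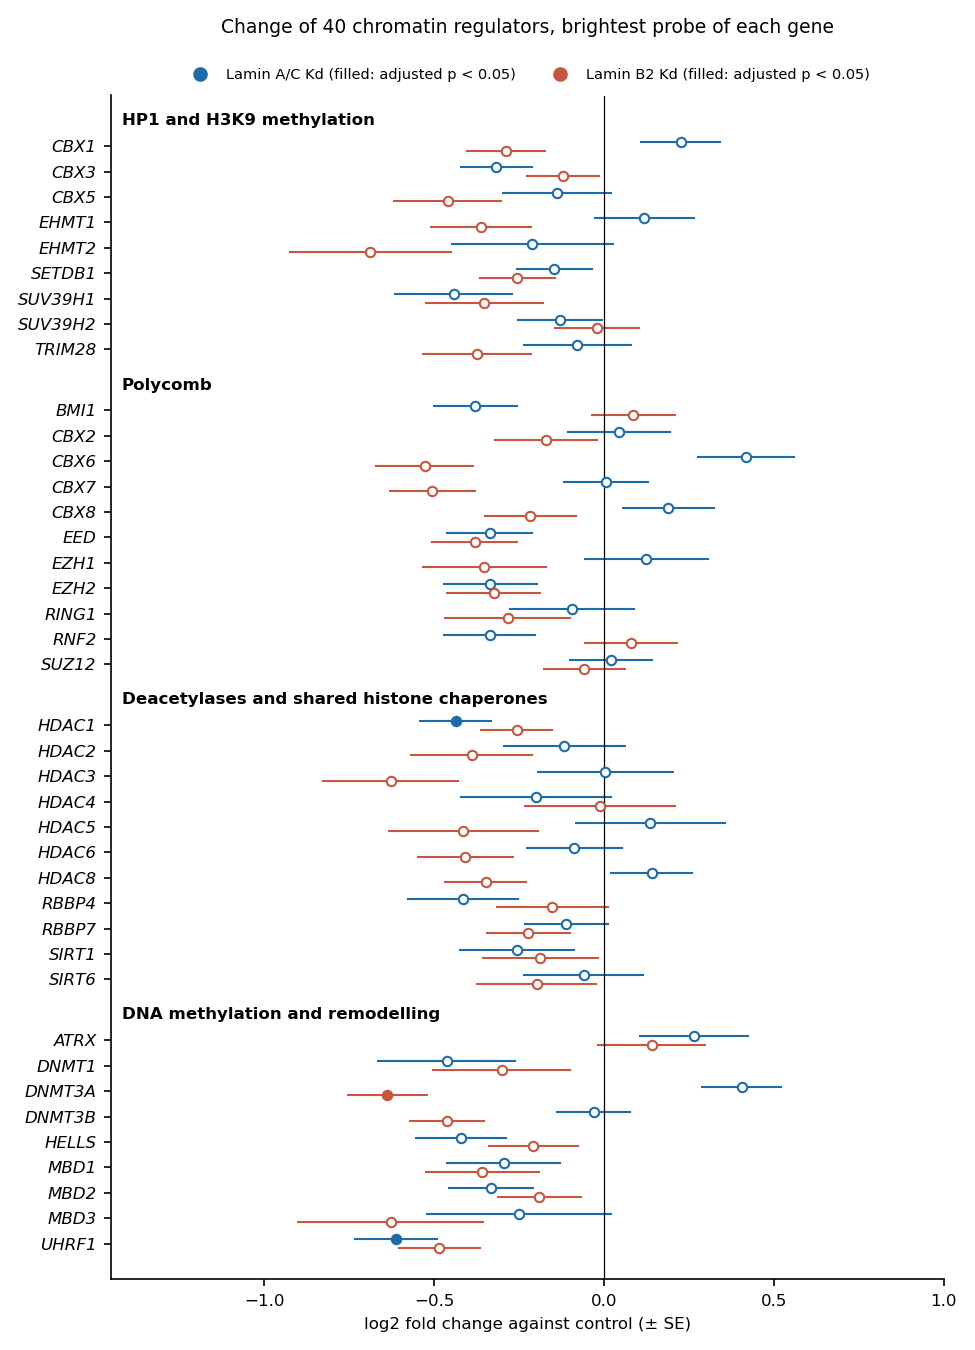
Log2 fold change against control (horizontal axis) of the brightest probe of each of 40 regulators, grouped by role, in Lamin A/C Kd (blue) and Lamin B2 Kd (red). Bars are standard errors from limma and filled points passed an adjusted p under 0.05, which only UHRF1 and HDAC1 did in Lamin A/C Kd and only DNMT3A in Lamin B2 Kd.

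Genes of DNA methylation held the lowest values in Lamin A/C Kd and the largest difference between the knockdowns. UHRF1 binds newly replicated DNA and brings DNMT1 to it. On its brighter probe the log2 level was 5.72, 5.77 and 5.95 in the 3 controls, 5.12, 5.14 and 5.35 in Lamin A/C Kd, and 5.23, 5.33 and 5.43 in Lamin B2 Kd. All 6 knockdown arrays lay below all controls. UHRF1 fell by 0.61 (log2) upon Lamin A/C Kd, to 65.4% of control (standard error 0.12, adjusted p = 0.0170 by limma). The other UHRF1 probe also fell there, by 0.71 (adjusted p = 0.0204). After Lamin B2 Kd the brighter probe had a log2 fold change of −0.48 (−0.34 relative to all genes, adjusted p = 0.0618), which passed the test without replicate 3 (−0.53, adjusted p = 0.0473). The difference between the knockdowns was −0.13 with a 95% interval of 0.28 to either side, so the data do not separate them.

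DNMT1, which copies methylation to the new strand, and HELLS, a remodeller that helps DNA methyltransferases reach packed chromatin, had the next lowest values of this group in Lamin A/C Kd. DNMT1 levels were 5.45, 5.56 and 5.69 in controls, 4.95, 5.30 and 5.07 in Lamin A/C Kd, and 5.34, 5.65 and 4.81 in Lamin B2 Kd. HELLS levels were 5.42, 5.32 and 5.32 in controls, 4.83, 4.97 and 5.004 in Lamin A/C Kd, and 5.14, 5.38 and 4.93 in Lamin B2 Kd. For both genes every Lamin A/C Kd array was below every control, and the Lamin B2 Kd arrays overlapped the controls. DNMT1 had a log2 fold change of −0.46 upon Lamin A/C Kd (adjusted p = 0.207) and HELLS one of −0.42 (adjusted p = 0.0893). Without Lamin B2 Kd replicate 3 the same differences passed, with adjusted p = 0.0391 and 0.0205.

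DNMT3A, which with DNMT3B sets methylation on unmethylated DNA, lay on opposite sides of the controls on its brighter probe. Its levels were 2.64, 2.66 and 2.76 in controls, 3.08, 3.06 and 3.14 in Lamin A/C Kd, and 1.99, 2.25 and 1.92 in Lamin B2 Kd. The 3 groups did not overlap, with Lamin A/C Kd above and Lamin B2 Kd below the controls. With Lamin B2 depleted, DNMT3A fell by 0.64 (standard error 0.12, adjusted p = 0.0262), or by 0.50 relative to all genes. In Lamin A/C Kd its log2 fold change was 0.41 (adjusted p = 0.0664), and 0.41 with adjusted p = 0.0202 without Lamin B2 Kd replicate 3. Between the knockdowns it was 1.04 higher upon Lamin A/C Kd (adjusted p = 0.000958, standard error 0.12), or 206% of the Lamin B2 Kd level, the largest difference among the 40. That difference passed the test in all 20 alternative settings computed, at 0.65 to 1.14.

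The dimmer DNMT3A probe did not follow the brighter one in Lamin A/C Kd. Its levels were 0.22, −0.18 and 0.18 in controls, −0.70, −0.59 and −0.42 in Lamin A/C Kd, and −0.87, −0.95 and −0.64 in Lamin B2 Kd. Both knockdowns lay below the controls on this probe and overlapped each other. It fell by 0.64 upon Lamin A/C Kd (adjusted p = 0.0318), which passed in 10 of 19 alternative settings, with −0.30 and adjusted p = 0.0593 under normexp background correction and −0.12 when both probes were averaged. Without Lamin B2 Kd replicate 3 it was at −0.64 (adjusted p = 0.0124). The fall upon Lamin B2 Kd was larger in size, −0.89 (adjusted p = 0.0207), but the difference between the knockdowns did not pass (adjusted p = 0.306). The files assign the 2 probes, each of 60 bases, to 2 different transcripts of DNMT3A. Their sequences had no run of more than 4 bases in common, and the first 30 bases of each are shown because the direction in Lamin A/C Kd differs between them.
DNMT3A, brighter probe: agggagacgagaacaccacacaagacattt
DNMT3A, dimmer probe: caaaaagtcttccttccaagcgtgtatgat

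DNMT3B, the partner of DNMT3A in de novo methylation, had levels of 3.58, 3.52 and 3.68 in controls, 3.58, 3.50 and 3.62 in Lamin A/C Kd, and 3.097, 3.26 and 3.04 in Lamin B2 Kd. Only the Lamin B2 Kd arrays lay apart, all below the other 6. Its log2 fold change was −0.03 upon Lamin A/C Kd, against −0.46 upon Lamin B2 Kd (−0.32 relative to all genes, adjusted p = 0.0543). Between the knockdowns DNMT3B was 0.43 higher upon Lamin A/C Kd (adjusted p = 0.0312, standard error 0.11), and this passed in 9 of 19 alternative settings.

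The methyl-CpG binding proteins MBD1, MBD2 and MBD3 and the remodeller ATRX made up the rest of this group. MBD3, a subunit of the NuRD deacetylase complex, had one of the lowest values in Lamin B2 Kd, −0.63 (adjusted p = 0.208). Its levels were 5.70, 5.85 and 5.79 in controls and 5.38, 5.60 and 4.47 in Lamin B2 Kd, and without replicate 3 the value was −0.29. MBD2, which binds methylated CpG sites, had log2 fold changes of −0.33 upon Lamin A/C Kd, against −0.19 upon Lamin B2 Kd (−0.07 without replicate 3), on its brighter probe. Levels on the other MBD2 probe were −1.74, −2.13 and −1.416 in controls, −2.32, −2.02 and −2.10 in Lamin A/C Kd, and −1.67, −1.33 and −1.14 in Lamin B2 Kd. Each knockdown overlapped the controls there, but the knockdowns did not overlap each other. On that probe Lamin A/C Kd was 0.77 lower than Lamin B2 Kd (adjusted p = 0.0336), which passed in 7 of 18 alternative settings and was −0.15 under normexp (adjusted p = 0.315). It was not well above background on any Lamin A/C Kd array but was on all Lamin B2 Kd arrays, with measured log2 means of −2.15 and −1.38. The probe was tested only through its signal in Lamin B2 Kd, and both means lie near the background, so the size of this difference is uncertain. ATRX lay at 0.26 upon Lamin A/C Kd and, the highest of the 40, at 0.14 upon Lamin B2 Kd, and passed in neither.

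Among the 11 Polycomb genes none passed the adjusted limma p against control on the brightest probe, 5 and 4 had an unadjusted p under 0.05 upon loss of the respective lamins, A/C and B2 (23.2% and 24.4% of all genes), and 3 differed between the knockdowns (15.7% of all genes). CBX6 encodes a chromodomain subunit of Polycomb repressive complex 1 (PRC1). Its levels were 4.76, 4.68 and 4.79 in controls, 5.06, 5.32 and 5.11 in Lamin A/C Kd, and 4.33, 4.39 and 3.93 in Lamin B2 Kd. The groups did not overlap and lay on opposite sides of the controls. Its log2 fold change was 0.42 upon Lamin A/C Kd (adjusted p = 0.111), against −0.53 upon Lamin B2 Kd (−0.39 relative to all genes, adjusted p = 0.0760). CBX6 was 0.95 higher in Lamin A/C Kd than in Lamin B2 Kd (standard error 0.14, adjusted p = 0.00347), and this passed in all 20 alternative settings, at 0.80 to 1.03.

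CBX7 encodes another chromodomain subunit of PRC1. On its brighter probe the levels were 4.05, 4.01 and 4.13 in controls, 4.03, 4.05 and 4.12 in Lamin A/C Kd, and 3.72, 3.63 and 3.32 in Lamin B2 Kd. Controls and Lamin A/C Kd overlapped, and all Lamin B2 Kd arrays lay below both. The log2 fold change in Lamin B2 Kd was −0.51 (−0.36 relative to all genes, adjusted p = 0.0615), and the difference of 0.51 between the knockdowns passed the test (standard error 0.13, adjusted p = 0.0270). On the dimmer probe CBX7 fell by 0.56 upon Lamin B2 Kd (adjusted p = 0.0339), which passed in 10 of 20 alternative settings. All Lamin A/C Kd arrays also lay below the controls on that probe, at −0.23 (adjusted p = 0.264).

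The PRC1 core genes BMI1 and RNF2, the latter an E3 ligase for histone H2A, had the opposite order, with their lower values in Lamin A/C Kd. BMI1 levels on the brightest of 3 probes were 5.84, 5.88 and 5.95 in controls, 5.38, 5.42 and 5.73 in Lamin A/C Kd, and 6.06, 5.93 and 5.94 in Lamin B2 Kd. Every Lamin A/C Kd array was below all others. BMI1 was 0.47 lower in Lamin A/C Kd than in Lamin B2 Kd (standard error 0.13, adjusted p = 0.0358), and this passed in 10 of 20 alternative settings. On the dimmer RNF2 probe the levels were 1.62, 1.37 and 1.68 in controls, 0.39, 0.99 and 0.86 in Lamin A/C Kd, and 1.49, 1.58 and 1.48 in Lamin B2 Kd. RNF2 fell by 0.81 there upon Lamin A/C Kd (adjusted p = 0.0186, standard error 0.17), while the brighter probe gave −0.34 (adjusted p = 0.173).

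Polycomb repressive complex 2 methylates lysine 27 of histone H3, and none of its subunits listed passed between the knockdowns. The methyltransferase EZH2 was at −0.33 upon Lamin A/C Kd, against −0.32 upon Lamin B2 Kd, and its partner EED at −0.34 and −0.38, and for both genes all 6 knockdown arrays lay below the controls. SUZ12, also a core subunit, was at 0.02 and −0.06 on its brightest probe. EZH1, the alternative methyltransferase, lay at 0.12 upon Lamin A/C Kd, against −0.35 upon Lamin B2 Kd, a difference of 0.48 (adjusted p = 0.116). The remaining Polycomb genes CBX2, CBX8 and RING1 did not pass in any comparison.

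**Figure D2:**
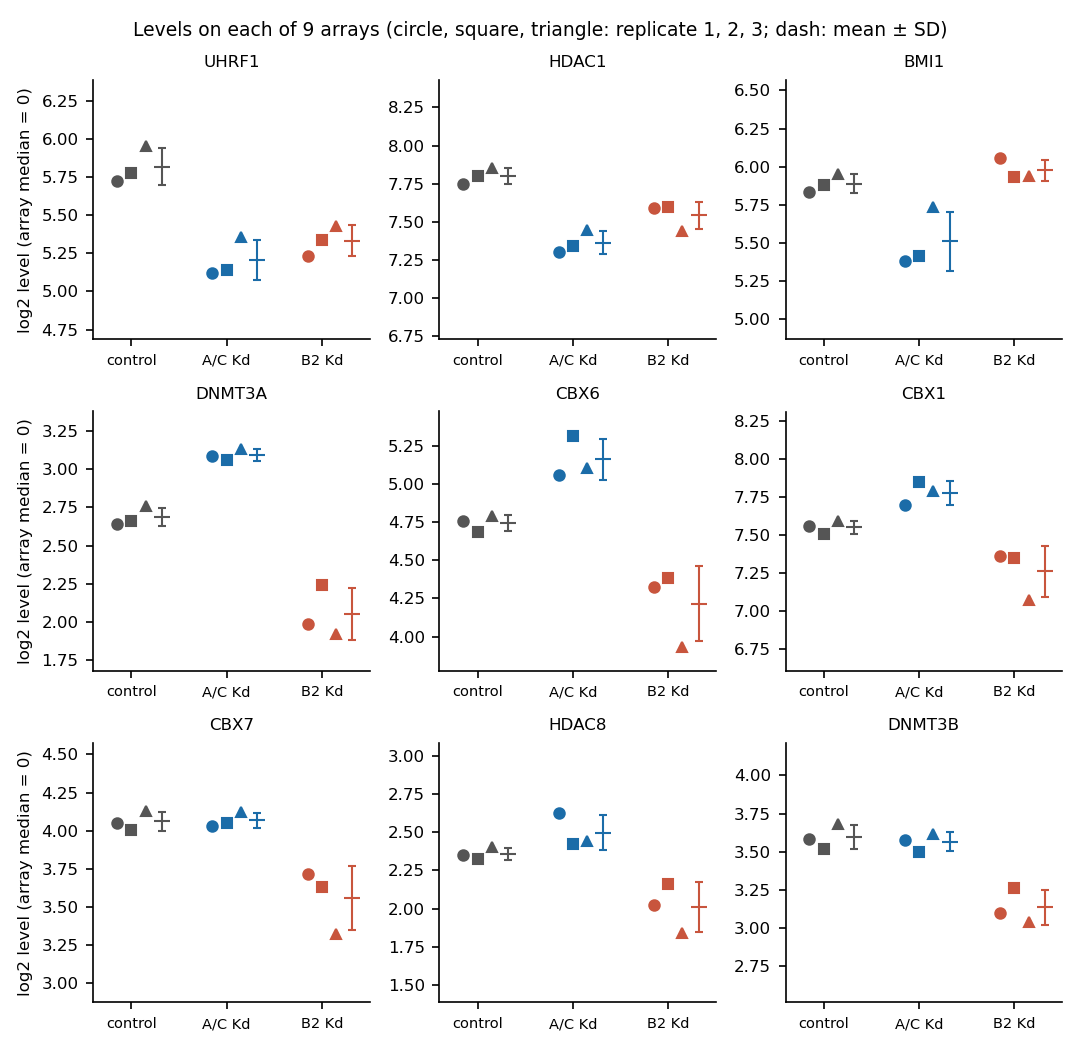
Log2 level relative to the array median (vertical axis) on each array for 9 regulators, grouped as control and the knockdowns, with the mean ± SD of 3 arrays beside the points. Lamin A/C Kd lies above and Lamin B2 Kd below the controls for DNMT3A and CBX6, both lie below for UHRF1, and only Lamin A/C Kd lies below for BMI1.

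None of the 9 genes of HP1 and H3K9 methylation passed the adjusted limma p against control on the brightest probe, while 2 and 5 had an unadjusted p under 0.05 upon loss of the respective lamins, A/C and B2 (23.2% and 24.4% of all genes), and CBX1, which encodes HP1β, was the only one to differ between the knockdowns. Its levels were 7.56, 7.51 and 7.59 in controls, 7.69, 7.85 and 7.79 in Lamin A/C Kd, and 7.36, 7.35 and 7.07 in Lamin B2 Kd. The 3 groups did not overlap on that probe. CBX1 was 0.51 higher in Lamin A/C Kd than in Lamin B2 Kd (standard error 0.12, adjusted p = 0.0196), but its other 2 probes were not above the controls in Lamin A/C Kd, at −0.20 and −0.14. The other HP1 genes CBX3 and CBX5 were at −0.32 and −0.14 upon Lamin A/C Kd, against −0.12 and −0.46 upon Lamin B2 Kd.

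Of the H3K9 methyltransferases, SUV39H1, which acts at pericentric heterochromatin, had the lowest value in Lamin A/C Kd. Its levels were 2.85, 3.04 and 2.98 in controls, 2.41, 2.64 and 2.49 in Lamin A/C Kd, and 2.66, 2.93 and 2.22 in Lamin B2 Kd. All Lamin A/C Kd arrays were below the controls, while Lamin B2 Kd overlapped both. The log2 fold change of −0.44 in Lamin A/C Kd had adjusted p = 0.158, and 0.0250 without Lamin B2 Kd replicate 3. EHMT2, which mono- and dimethylates H3K9 together with EHMT1, had the lowest value of the 40 in Lamin B2 Kd, at −0.69 (adjusted p = 0.136), with levels of 4.17, 4.14 and 4.17 in controls and 3.58, 3.96 and 2.88 in Lamin B2 Kd. All its Lamin B2 Kd arrays lay below the controls, replicate 3 farthest. Without replicate 3 EHMT2 was at −0.39, and DNMT3A (−0.57), UHRF1 (−0.53), HDAC3 (−0.44) and DNMT3B (−0.41) were lower.

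EHMT1 was the only gene with a probe at least 2-fold lower than control at an unadjusted p under 0.05. On that probe, the second brightest of 4, levels were 1.59, 1.76 and 1.67 in controls, 0.86, 1.38 and 0.99 in Lamin A/C Kd, and 0.59, 1.15 and 0.01 in Lamin B2 Kd. The log2 fold change of −1.09 in Lamin B2 Kd had adjusted p = 0.0524, and without replicate 3 it was −0.81, under 2-fold. The other 3 EHMT1 probes were between −0.36 and 0.16 in Lamin B2 Kd, so the probes of this gene disagree. SETDB1, SUV39H2 and the corepressor TRIM28 were between −0.15 and −0.08 upon Lamin A/C Kd, against −0.37 to −0.02 upon Lamin B2 Kd.

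HDAC1 was the deacetylase that fell in Lamin A/C Kd. Its levels were 7.75, 7.80 and 7.85 in controls, 7.30, 7.34 and 7.45 in Lamin A/C Kd, and 7.59, 7.60 and 7.44 in Lamin B2 Kd. Every knockdown array was below every control. With Lamin A/C depleted, HDAC1 fell by 0.44, to 73.9% of control (standard error 0.11, adjusted p = 0.0364), and this passed in 11 of 20 alternative settings. For Lamin B2 Kd the log2 fold change was −0.26 (−0.12 relative to all genes, adjusted p = 0.188). HDAC2, its close paralog in the same complexes, was at −0.12 and −0.39, the latter −0.17 without Lamin B2 Kd replicate 3. The histone chaperones RBBP4 and RBBP7, which are found in NuRD, PRC2 and other complexes, were at −0.41 and −0.11 upon Lamin A/C Kd, against −0.15 and −0.22 upon Lamin B2 Kd.

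HDAC3, a class I deacetylase, had levels of 3.99, 4.08 and 4.17 in controls, 3.85, 4.35 and 4.06 in Lamin A/C Kd, and 3.44, 3.84 and 3.08 in Lamin B2 Kd. The Lamin B2 Kd arrays lay below all others. Its log2 fold change of −0.63 in Lamin B2 Kd (−0.49 relative to all genes) had adjusted p = 0.112. HDAC8, of the same class and known for its action on cohesin, had levels of 2.35, 2.32 and 2.40 in controls, 2.63, 2.42 and 2.44 in Lamin A/C Kd, and 2.03, 2.16 and 1.84 in Lamin B2 Kd. It was 0.49 higher in Lamin A/C Kd than in Lamin B2 Kd on this probe (standard error 0.12, adjusted p = 0.0272) and 0.77 higher on the dimmer one (adjusted p = 0.0138).

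HDAC4, a class IIa deacetylase that shuttles between nucleus and cytoplasm, gave different answers on different probes. On the brightest of its 4 probes the levels were 3.19, 3.101 and 3.37 in controls, 2.93, 3.24 and 2.90 in Lamin A/C Kd, and 2.90, 2.97 and 3.76 in Lamin B2 Kd, and nothing passed. Replicate 3 alone lay above the controls, and without it this probe was at −0.29 (adjusted p = 0.280), the same side as the other probes. On probe 2, the next in brightness, they were 2.99, 2.85 and 2.96 in controls, 3.04, 3.14 and 3.099 in Lamin A/C Kd, and 2.12, 2.28 and 2.57 in Lamin B2 Kd. On probes 2 and 3 Lamin B2 Kd lay below all other arrays. Upon Lamin B2 Kd HDAC4 fell by 0.61 on probe 2 (adjusted p = 0.0421, passed in 6 of 19 alternative settings) and by 0.86 on probe 3 (adjusted p = 0.0227, passed in 12 of 20), while probe 4 gave −0.71 (adjusted p = 0.0917). Between the knockdowns probe 2 was 0.77 higher in Lamin A/C Kd (adjusted p = 0.00606), which passed in all 19 alternative settings, and probe 3 was 0.99 higher (adjusted p = 0.00350), which passed in 19 of 20. The files assign all 4 probes to 1 transcript, and the first 30 of 60 bases of 3 of them are shown, since probe 1 did not pass against control and probe 3 did.
HDAC4, probe 1: cttgtctgtctgtctctgtcttgaagctca
HDAC4, probe 3: tttaattacttttaggtgatgtatggctaa
HDAC4, probe 4: gccgaattcagttgacacgaggcacagaaa

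The remaining deacetylases did not pass in any comparison. HDAC5 and HDAC6 were at 0.14 and −0.09 upon Lamin A/C Kd, against −0.41 for both upon Lamin B2 Kd, which became −0.12 and −0.27 without replicate 3. The sirtuins SIRT1 and SIRT6 were at −0.25 and −0.06 upon Lamin A/C Kd, against −0.19 and −0.20 upon Lamin B2 Kd. HDAC9 was not tested, since each of its 5 probes was well above background on at most 1 array per group.

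**Figure D3:**
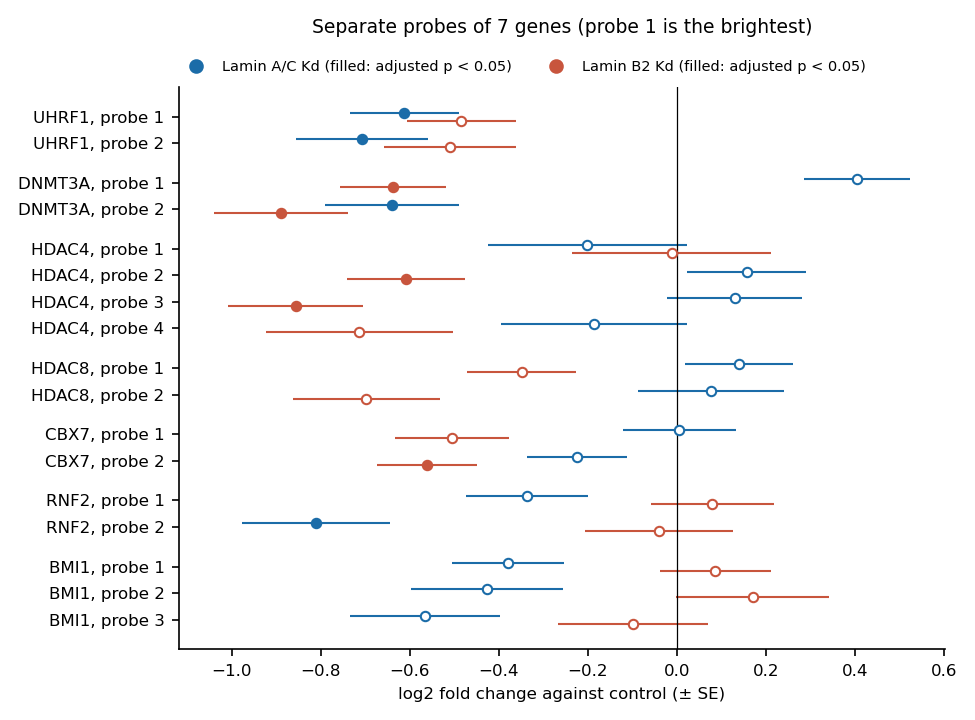
Log2 fold change against control (horizontal axis, bars are standard errors from limma) on every probe of 7 genes, in Lamin A/C Kd (blue) and Lamin B2 Kd (red), filled where the adjusted p was under 0.05. The probes of UHRF1 and BMI1 lie together, whereas the DNMT3A probes part in Lamin A/C Kd and the brightest HDAC4 probe parts from the other 3 in Lamin B2 Kd.

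Counted over any probe of a gene, 4 of the 40 passed in Lamin A/C Kd (DNMT3A, HDAC1, RNF2 and UHRF1), against 11.1% of all genes, and 3 in Lamin B2 Kd (CBX7, DNMT3A and HDAC4), against 5.39%. In the contrast of the knockdowns, 7 of 40 passed on the brightest probe, against 15.7% of all genes. Of these, CBX1, CBX6, CBX7, DNMT3A, DNMT3B and HDAC8 were higher in Lamin A/C Kd, against 11.2% of all genes, and BMI1 was lower, against 4.53%. At an unadjusted p under 0.05 and at least 2-fold, DNMT3A alone passed in this contrast, against 4.21% of all genes. HDAC4, MBD2 and RNF2 joined them when any probe counted, which 18.7% of all genes passed. The MBD2 probe was tested there only through its signal in Lamin B2 Kd. The share of 7 in 40 is close to the share of all genes, so the contrast does not set these regulators apart as a group. Without Lamin B2 Kd replicate 3, 8 of 40 passed, against 19.2% of all genes: the same 6 higher, against 11%, and BMI1 and RNF2 lower, against 8.16%. Both knockdowns were set against the same controls.

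The list as a whole lay slightly below the controls. In Lamin A/C Kd its median log2 fold change was −0.12, against −0.04 for all genes, and 27 of 40 were lower than control, where 55.5% of all genes were. That median became −0.049 with the 75th percentile and −0.0039 with quantile normalization. In Lamin B2 Kd the median was −0.31, against −0.14 for all genes, and 37 of 40 were lower, where 66.7% of all genes were. With the 75th percentile and with quantile normalization that median was −0.12, but the 75th percentile also raised the median of all genes, as given above. The medians under these alternatives are not relative to all genes. Lamin B2 Kd replicates 1 and 2 had medians of −0.18 and −0.17 below the control mean and replicate 3 of −0.54, and without replicate 3 the median was −0.19, against −0.06 for all genes. The arrays of Lamin A/C Kd and control did not overlap for 19 of the 40, 15 lower and 4 higher, against 40.7% of all genes, 25.1% lower and 15.6% higher. For Lamin B2 Kd they did not overlap for 20, all lower, against 32.8% of all genes, 27.2% lower and 5.62% higher.

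Several of these regulators are known to be transcribed mainly in dividing cells, so the level of 30 S phase and mitosis genes was set beside them. Upon Lamin A/C Kd 13 of the 30 fell and none rose, where 8.94% of all genes passed, among them the replicative helicase subunits MCM6 (−1.22, adjusted p = 0.00139) and MCM4 (−0.80), the replication factor CDC45L (−0.83) and the mitotic kinase AURKA (−0.74). Their median was −0.48, against −0.04 for all genes, and without Lamin B2 Kd replicate 3 the number that passed was 25, where 20.9% of all genes did. In Lamin B2 Kd none of the 30 passed the adjusted limma p and 13 had an unadjusted p under 0.05, where 4.38% and 24.4% of all genes passed, with a median of −0.30 against −0.14 for all genes. Lamin A/C Kd replicate 1 had the lowest median of that group for the 30 genes (−0.60), for the 40 regulators (−0.20) and for all genes (−0.08). By propidium iodide staining, the study reported similar shares of cycling cells in control and lamin-depleted cultures. The part of cell division in the values of UHRF1, DNMT1, HELLS or EZH2 was not tested.

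**Figure D4:**
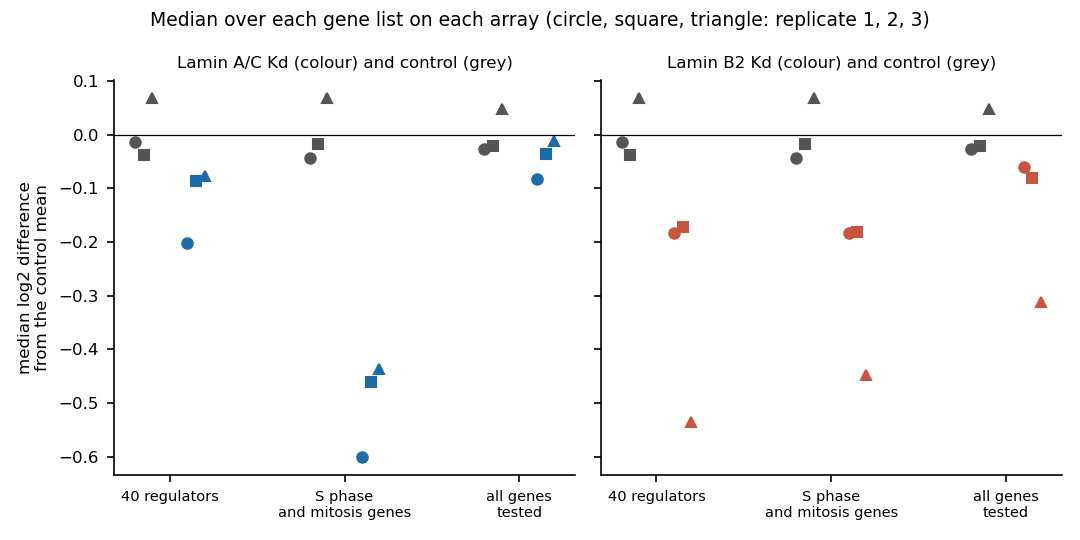
Median log2 difference from the control mean (vertical axis) on each array, over the 40 regulators, over 30 S phase and mitosis genes and over all genes tested, for Lamin A/C Kd (left) and Lamin B2 Kd (right) beside the controls (grey). In Lamin A/C Kd the S phase and mitosis genes lie far below the regulators, and in Lamin B2 Kd replicate 3 lies lowest for all 3 lists.

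The promoters of these genes were searched for the letters TTTCGCGC and TTTGGCGC, both of which match the binding motif of the E2F factors that drive S phase transcription. The letters were chosen with the values above known. RefSeq promoter windows (GRCh38.p14) from 250 bases before to 50 after a transcription start were at hand for 37 of the genes, and both strands were searched. The letters stood in a window of 5 of them, UHRF1, DNMT1, HELLS, EZH2 and CBX3, and in 1.15% of all 35116 windows, which belong to 1.4% of all genes with a window. For each of the 5 all Lamin A/C Kd arrays lay below all controls, as they did for 25.1% of all genes. The log2 fold changes were −0.61, −0.46, −0.42, −0.33 and −0.32 in that order, and all 5 are among the 11 that fell there without Lamin B2 Kd replicate 3. Because the letters were chosen with these values known, this overlap is a description, and a link was not tested. The other 6 of those 11 had no match in these windows. A match is a string of letters and not evidence of a bound factor. The stretch of 60 bases around each match is shown with the matching letters in capitals, reading 5′ to 3′ along the gene.
UHRF1, chr19:4909958-4910017, plus strand: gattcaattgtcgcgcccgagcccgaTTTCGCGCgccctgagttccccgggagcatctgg
DNMT1, chr19:10194934-10194993, minus strand: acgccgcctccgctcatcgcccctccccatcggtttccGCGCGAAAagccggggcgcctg
HELLS, chr10:94545686-94545745, plus strand: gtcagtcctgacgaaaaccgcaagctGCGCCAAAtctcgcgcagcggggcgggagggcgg
EZH2, chr7:148884272-148884331, minus strand: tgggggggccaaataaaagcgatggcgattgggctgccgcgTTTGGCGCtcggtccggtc
CBX3, chr7:26201403-26201462, plus strand: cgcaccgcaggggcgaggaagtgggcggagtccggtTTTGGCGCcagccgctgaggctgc

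Other genes of the same pathways were examined from a list of 70, of which 68 were found and 67 tested. Upon Lamin A/C Kd 5 passed, where 8.94% of all genes did. The NuRD subunit MTA2 (−0.88, adjusted p = 0.00598), the PRC1 subunit PCGF5 (−0.65), the chromatin assembly factor subunit CHAF1B (−0.61) and the PRC2 cofactor AEBP2 (−0.55) fell, and ZBTB4, a reader of methylated DNA, rose by 0.68 (adjusted p = 0.00867). Upon Lamin B2 Kd 6 passed, all lower, where 4.38% of all genes passed, among them the mitochondrial deacylase SIRT5 (−1.35, adjusted p = 0.00860) and both chromatin assembly factor subunits CHAF1A (−0.76) and CHAF1B (−0.68). In the contrast of the knockdowns 17 of the 67 passed, 13 of them higher in Lamin A/C Kd, where 15.7% of all genes passed.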

How the data were processed

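RNA of 9 DLD1 cultures was measured on single-color arrays. Scanner files, as the authors deposited them, came from Agilent Feature Extraction (version 10.5 per the submitters' processing notes) and hold for each spot an intensity already corrected for background and spatial trend. They also deposited log2 values after a 50th percentile shift, used here as an alternative, with 20266 of 50238 entries blank and 11504 that joined several probes. The log2 intensity minus the array's 50th percentile was averaged over a probe's spots, outliers left out. Testing took the probes detected on each of the 3 arrays in 1 or both groups, which left 33131 probes for Lamin A/C Kd and 33535 for Lamin B2 Kd. A probe counts as detected where at least 0.5 of its spots were marked well above background, which 65.6 to 74.1% of all spots were, and the number of arrays limits the precision.

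Groups were compared with the limma package (3.58.1) under R 4.3.3, with version 1.17.8 of data.table for reading, in a linear model over all 9 arrays, with Benjamini-Hochberg adjustment over all tested probes and a threshold of 0.05. The methods of the study name no test for the arrays. The brightest probe of a gene gave its value, and no level is compared between probes. Values on every array are given for genes with a call on any probe and for the 3 largest other changes in each knockdown. The members and gene lists were chosen with earlier results of these data known. The steps were tested on simulated data. The files mark every probe position as unmapped, so no gene positions are given. Gene names are those of the array design, and 70 of the 80 member probes carry an accession that RefSeq lists as a transcript of the same gene.

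Alternatives were a 75th percentile shift, the deposited table, quantile normalization, normexp correction (offset of 50), no detection filter, detection on all 9 arrays, blocks of replicate number or slide, a fit to the 2 groups compared alone, array weights, the mean over probes, and leaving out each array in turn. Lamin B2 Kd replicate 3 was the only array on its slide. The slide block therefore takes that array out of the fit, as leaving it out does, and the 2 settings are not separate checks. Promoter sequences are from RefSeq, GRCh38.p14. A few items are not reported here.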

Additional observations from a re-analysis of the deposited data

How the results depend on the processing

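The number of the 40 regulators past the adjusted p in Lamin A/C Kd (2 as reported) was 6 with a 75th percentile shift, 5 with quantile normalization, 9 with normexp, 3 with the deposited values and with the mean over probes, 1 without the detection filter, 10 with a fit to those groups alone, and 13 with the slide as a block or with array weights. For Lamin B2 Kd (1 as reported) it was 7 with normexp, 2 with the deposited values, with detection on all 9 arrays and with a slide block, 3 with the mean over probes, and 0 without the filter or with those groups alone. Between the knockdowns (7 as reported) it was 12 with the 75th percentile and with normexp, 11 with quantile normalization, 3 without the filter and 2 with those groups alone. Leaving out 1 array at a time gave 0 to 13, 0 to 4 and 2 to 8 in the same order, and the highest value came without Lamin B2 Kd replicate 3, 2 and 3. The share of all genes that passed is not given for these settings, so the counts are not a result about the regulators. In Lamin A/C Kd that share also rose without Lamin B2 Kd replicate 3, from 8.94% to 20.9%.

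The median of the 40 in Lamin A/C Kd moved to −0.049 with the 75th percentile, −0.0039 with quantile normalization and −0.19 with normexp. In Lamin B2 Kd it was −0.12 with the 75th percentile and with quantile normalization and −0.39 to −0.19 when 1 array was left out. None of these medians is relative to all genes.

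Of the 30 S phase and mitosis genes, Lamin A/C Kd lowered or raised past the test 21 with the 75th percentile, 19 with quantile normalization, 26 with normexp and with array weights, 7 without the filter, 25 with those groups alone or a slide block, and 3 to 25 with 1 array left out; for Lamin B2 Kd the numbers were 7 with normexp and 0 to 1 with 1 array left out. Related genes that passed in Lamin A/C Kd numbered 11 with the 75th percentile, 10 with quantile normalization, 15 with normexp, 17 with those groups alone, 16 with the slide as a block, 21 with array weights and 2 to 16 with 1 array left out. In Lamin B2 Kd they numbered 14 with normexp, 1 without the filter, 10 with detection on all 9 arrays, 0 with those groups alone and 0 to 9 with 1 array left out. For these lists too, the share of all genes under each setting is not given, and the cause of these shifts was not tested.

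With the replicate number as a block, 1, 0 and 2 of the 40 passed in Lamin A/C Kd, in Lamin B2 Kd and between the knockdowns, 6 of the S phase and mitosis genes passed in Lamin A/C Kd, and 3 and 1 of the related genes passed in the respective knockdowns. The shares of all genes with this block are not given. Deviations from the group mean had correlations of −0.085 to 0.15 between arrays with the same number, and of −0.12 to 0.15 between arrays with different numbers. With 3 arrays per group these values cannot show whether the numbers pair the samples. The Lamin B2 Kd numbers used are those of the sample titles, and the deposited log2 values number these arrays differently.

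Neither lamin target and no call on a regulator probe changed direction under any alternative. Values without a call were not followed through all alternatives, and some did change sign. SUV39H2 in Lamin B2 Kd, for example, moved from −0.02 to 0.06 without Lamin B2 Kd replicate 3. The differences of CBX6 and of the brighter DNMT3A probe between the knockdowns passed in all 20. UHRF1 in Lamin A/C Kd lost its call without any 1 of the controls or Lamin A/C Kd replicate 1 or 2 (adjusted p up to 0.0853) and kept it in the other 14 of 19. HDAC1 lost it without any 1 of the controls or Lamin A/C Kd arrays or Lamin B2 Kd replicate 2 (adjusted p up to 0.144). DNMT3A in Lamin B2 Kd lost it without any 1 of the controls, Lamin A/C Kd replicate 1 or 2 or Lamin B2 Kd replicate 1 (adjusted p up to 0.132).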

Other observations

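HDAC7 is listed on these arrays under its older symbol HDAC7A, which the choice by name did not take. On the brighter of its 2 probes the log2 levels were 6.06, 5.96 and 6.15 in controls, 6.02, 6.11 and 6.04 in Lamin A/C Kd, and 5.99, 6.04 and 5.37 in Lamin B2 Kd. The arrays of each knockdown overlapped the controls. The log2 fold change was −0.0019 upon Lamin A/C Kd, against −0.25 upon Lamin B2 Kd, and neither passed the limma test (adjusted p = 0.997 and 0.387).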
